A study of Mus musculus with 30 samples.

Results

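The cytosolic ribosomal protein genes, which encode the proteins of the cell's main ribosome, were followed in the spinal cord of adult female C57BL/6 mice after a cortical stroke. Members were chosen by name, as the genes whose symbol starts with Rpl or Rps and a digit, together with Rplp0, Rplp1, Rplp2 and Rpsa. The 10 genes named Rps6k, which encode kinases, and the 19 names with -ps, which mark pseudogenes, were dropped. This left 85 of the 16995 genes in the table, namely 46 of the large (60S) subunit, 30 of the small (40S) subunit, 7 paralogues (Rpl22l1, Rpl36al, Rpl37rt, Rps4l, Rps12l1, Rps27l and Rps27rt) and 2 genes that match the names but encode proteins outside the mature subunits (Rpl7l1 and Rps19bp1). In all groups total RNA came from the cervical cord at C5/C6, trimmed by blade to its intermediate laminae, a target of corticospinal fibres, and was prepared from all samples at the same time. Stroke mice had received a photothrombotic lesion of the right sensorimotor cortex, made with Rose Bengal and light, and were killed 4, 7, 14, 28 or 42 days later (dpi). The paper states that their tissue came from the side of the cord denervated by the stroke. The group labelled Ctrl was sham-operated, without illumination of the skull. The samples sequenced had been chosen on quality scores from the operated animals. Values were used for 29 animals, 4 at 4 dpi and 5 in every other group, since the animal A9-3 of the 4 dpi group has no column of values. The paper states, without naming the animal, that a 4 dpi sample was left out of its analysis as a statistical outlier. Each value is a normalized CPM, a gene's count scaled by the authors for library size, and its read depth is unknown.

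Each subunit of the ribosome joins ribosomal RNA with a fixed set of proteins, and the cell makes these proteins in matched amounts. Their mRNAs are short and abundant. Most of them start at a C followed by a run of pyrimidines (C or T), the terminal oligopyrimidine or TOP motif, through which mTOR and the RNA-binding protein Larp1 control their translation. In neurons, ribosomal protein mRNAs are also found in axons and dendrites.

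The start regions of some members are shown because the TOP motif, where present, lies there. RefSeq promoters of GRCm38.p6 were matched by symbol for 63 of the 85 members, taking the first start listed for each gene. Within 15 bases on either side of the start, 25 of the 63 (39.7%) held a run of 8 or more C or T on the coding strand, against 11.9% of 27025 promoters of the same table. In the following windows the start site is base 16, and capitals mark the longest run of C or T.

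Rpl15 (chr14:18270972-18271001, minus strand): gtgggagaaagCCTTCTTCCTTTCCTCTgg
Rps6 (chr4:86857353-86857382, minus strand): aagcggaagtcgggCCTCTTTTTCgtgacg
Rpl38 (chr11:114668565-114668594, plus strand): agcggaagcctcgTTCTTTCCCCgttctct
Rpl22l1 (chr3:28805493-28805522, plus strand): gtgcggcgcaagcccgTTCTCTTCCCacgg
Rps13 (chr7:116334176-116334205, minus strand): gagagcaaacgtcggtgagtggcgtcaCTT
Rpl22 (chr4:152325711-152325740, plus strand): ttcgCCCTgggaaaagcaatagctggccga

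The first 4 hold runs of 17, 10, 10 and 10 bases that span or adjoin the annotated start, whereas the longest runs in the windows of Rps13 and Rpl22 are 3 and 4 bases long and lie away from the listed start. The letters CCGGAAG, the core bound by ETS factors, were found on either strand of the promoter, from 250 bases before to 50 after the start, in 24 of the 63 members (38.1%) and in 9.12% of all promoters. AAGATGG, the core of the YY1 motif, was found in 9 members (14.3%) and in 6.48% of all promoters. The 2 motifs can overlap at their shared AAG. Members with and without the pyrimidine run had almost the same median log2 difference between 28 dpi and sham, -0.47 for the 25 with it and -0.47 for the 38 without it. Medians were -0.47 for the 24 with CCGGAAG and -0.44 for the 39 without it. These matches are a description of letters near the listed starts.

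Per kilobase of transcript, the members were expressed at a median of 64.3 normalized CPM, against 6.29 for 16919 genes with a known length, and 63 of the 85 lay above the 90th percentile of all genes. The highest per kilobase were Rpl13a (210.4), Rpl3 (210.2) and Rplp1 (206). Rpl3 lies at the peptidyl transferase centre and Rplp1 belongs to the stalk that recruits elongation factors. The lowest were Rpl12 (2.81), Rpl27 (4.17) and Rps19bp1 (5.56), the last encoding a nucleolar protein that binds Rps19. Paralogues were lower than core genes, with a median of 27.6 per kilobase against 70.4 for the large and 66.5 for the small subunit.

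Some libraries stood apart before any member was compared. The value of the ribosomal RNA gene Rn18s-rs5 ranged from 18295 to 817780 across the 29 animals although libraries had been depleted of ribosomal RNA, and it was highest in A6-3 (14 dpi), A3-3 (28 dpi) and A3-4 (42 dpi). Defining markers of spinal cord tissue were present in all animals, with summed values of 6 neuronal genes from 1849 to 2717 and of 4 oligodendrocyte genes from 3511 to 7339. The label unit, the number after the letter A, marks 2 sets of animals in each group, and only unit 3 holds animals of more than 1 group (A3-1 and A3-3 at 28 dpi, A3-4 at 42 dpi). What the unit stands for is not given in the labels.

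For each animal, the median over the 85 members of the log2 difference from the sham mean gives 1 number for the whole family. It was -0.46, -0.04, 0.01, 0.23 and 0.30 in the sham animals A11-1, A11-4, A12-2, A12-1 and A12-3. The 4 dpi animals ran from -0.11 to 0.30, those at 7 dpi from -0.13 to 0.37, and those at 14 dpi from 0.14 to 0.46. At 28 dpi the animals split. The median was -0.82 in A4-4, -0.65 in A3-3 and -0.65 in A4-3, that is 0.565, 0.636 and 0.637 times the sham mean, whereas A3-1 (0.958 times) and A4-1 (1.00 times) lay inside the sham range. At 42 dpi it lay between -0.17 and 0.09, inside the sham range in all 5 animals. No test was made of this number, since it is taken over chosen genes.

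**Figure D1:**
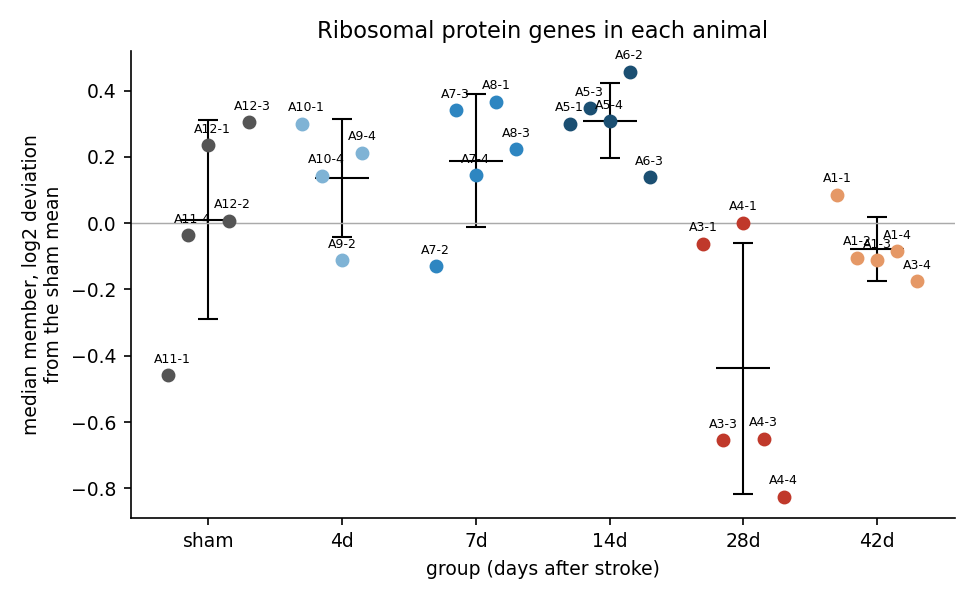
Median over the 85 ribosomal protein genes of the log2 deviation from the sham mean (vertical axis) in each of 29 animals by group (horizontal axis), with the group mean (long bar) and SD (error bar). At 28 dpi 3 animals lie at -0.65 or below and the other 2 among the sham animals, where 1 animal, A11-1, lies at -0.46.

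At 28 dpi the family was lower than in the sham group. Of the 85 members, 84 had a lower fitted mean and 59 (69.4%) were called lower, 36 of the 46 large-subunit genes, 21 of the 30 small-subunit genes, 1 of the 7 paralogues and Rpl7l1. None was called higher. Over all genes, 13.0% were called lower and 11.9% higher. Calls are by limma with Benjamini-Hochberg adjusted p under 0.05 over 16995 genes. The median member differed by -0.45 on the log2 scale and the median of all genes by -0.0048. Among the 59 called members the log2 difference ran from -0.68 to -0.20, or 0.626 to 0.873 times the sham level. Of the 85 members, 8 passed the additional limit of a 1.5-fold difference, against 0.488% of all genes. In bulk tissue, fewer cells of a type and less RNA per cell cannot be told apart.

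In most members it was the same 3 animals that were low. Exactly 3 of the 5 animals at 28 dpi lay below the whole sham range in 50 members, 2 animals in 21, 1 in 7 and none in 3. The animal A4-4 was below the sham range in 80 members, A3-3 and A4-3 in 65 each, A4-1 in 5 and A3-1 in 1. Only Rpl7l1 had all 5 animals at 28 dpi below all sham animals, while 3.75% of all genes had that. The count of 59 was 10 in a fit of these 2 groups alone, with the same median difference. Over all genes that fit called 815 lower, against 2206 in the fit of all groups. It also moved with single animals and was 16 without A3-3, 23 without A4-4 and 27 without A4-3, and 20 and 21 without the sham animals A12-1 and A12-3. Rn18s-rs5 stood between 30321 and 52929 in the sham animals, at 44755 in A4-1 and between 291950 and 779160 in the other 4 animals at 28 dpi. Without the 3 animals highest in ribosomal RNA, of which only A3-3 belongs to this comparison, the count was 15 with a median difference of -0.37. With ribosomal RNA as a covariate it was 0 (9 members at an unadjusted p under 0.05) with a median difference of -0.28. That covariate fit called 0 of all 16995 genes in either direction. After correction for transcript length and GC content the count was 62, while 2875 of all genes were called lower.

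Rps7, a small-subunit protein that also binds Mdm2, showed the largest called fall. Its normalized CPM was 24.3, 27.3, 34.8, 28.8 and 32.8 in the sham animals A11-1, A11-4, A12-1, A12-2 and A12-3, and 28.5, 13, 25.7, 15.8 and 13.1 in A3-1, A3-3, A4-1, A4-3 and A4-4 at 28 dpi. A3-1 and A4-1 lay within the sham values and the other 3 below all of them. The log2 difference was -0.68 ± 0.16 (SE), with a limma adjusted p of 0.00431.

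Rps13, a small-subunit protein at the interface of the subunits, had the lowest adjusted p of the family. In the same order of animals it was 18.4, 27, 30.3, 22.4 and 34.4 in the sham group and 19.3, 16.4, 20.4, 13.3 and 13 at 28 dpi. Only the lowest sham animal, A11-1, overlapped the 28 dpi values. The log2 difference was -0.66 ± 0.14 (SE; limma adjusted p = 0.00218).

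Rps6, the substrate of the S6 kinases, was 75.6, 90.1, 106, 99.1 and 131.5 in the sham animals and 79.1, 65.9, 88.7, 56 and 45.6 at 28 dpi. Here A3-1 and A4-1 again lay inside the sham range, near its lower end. The log2 difference was -0.59 ± 0.13 (SE; limma adjusted p = 0.00317).

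Rpl15, a core protein of the large subunit, was 53.4, 50.6, 73.7, 66.4 and 71.6 in the sham group and 54.8, 36.5, 50.1, 41.9 and 40.7 at 28 dpi. It differed from most members in that 4 of the 5 animals, A4-1 among them, were below all sham animals. Its log2 difference was -0.49 ± 0.11 (SE; limma adjusted p = 0.00284).

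Rpl22, which binds RNA and is dispensable for translation as such, also had 4 of 5 animals below the sham range. It was 39.3, 40.2, 47.2, 47.4 and 48 in the sham animals and 40.1, 30.8, 38.2, 26.3 and 33.5 at 28 dpi. The log2 difference was -0.40 ± 0.09 (SE; limma adjusted p = 0.00271).

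Larger called differences than that of Rpl22 included those of Rpl39 (-0.60), Rpl38 (-0.60), Rps29 (-0.59) and Rpl22l1 (-0.59). Rpl39 lines the tunnel through which the new chain leaves, and Rpl38 is known for its role in translating Hox mRNAs. The smallest called differences were those of Rps15a (-0.20), Rpl4 (-0.27), Rpl3 (-0.28) and Rpl7l1 (-0.29). Rpl4, the second highest member by mean value after Rpl3, and Rpsa, the third, differed by -0.27 and -0.47. Across the 85 members, which share animals and libraries, Spearman's rho between the mean value and the difference was -0.04.

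**Figure D2:**
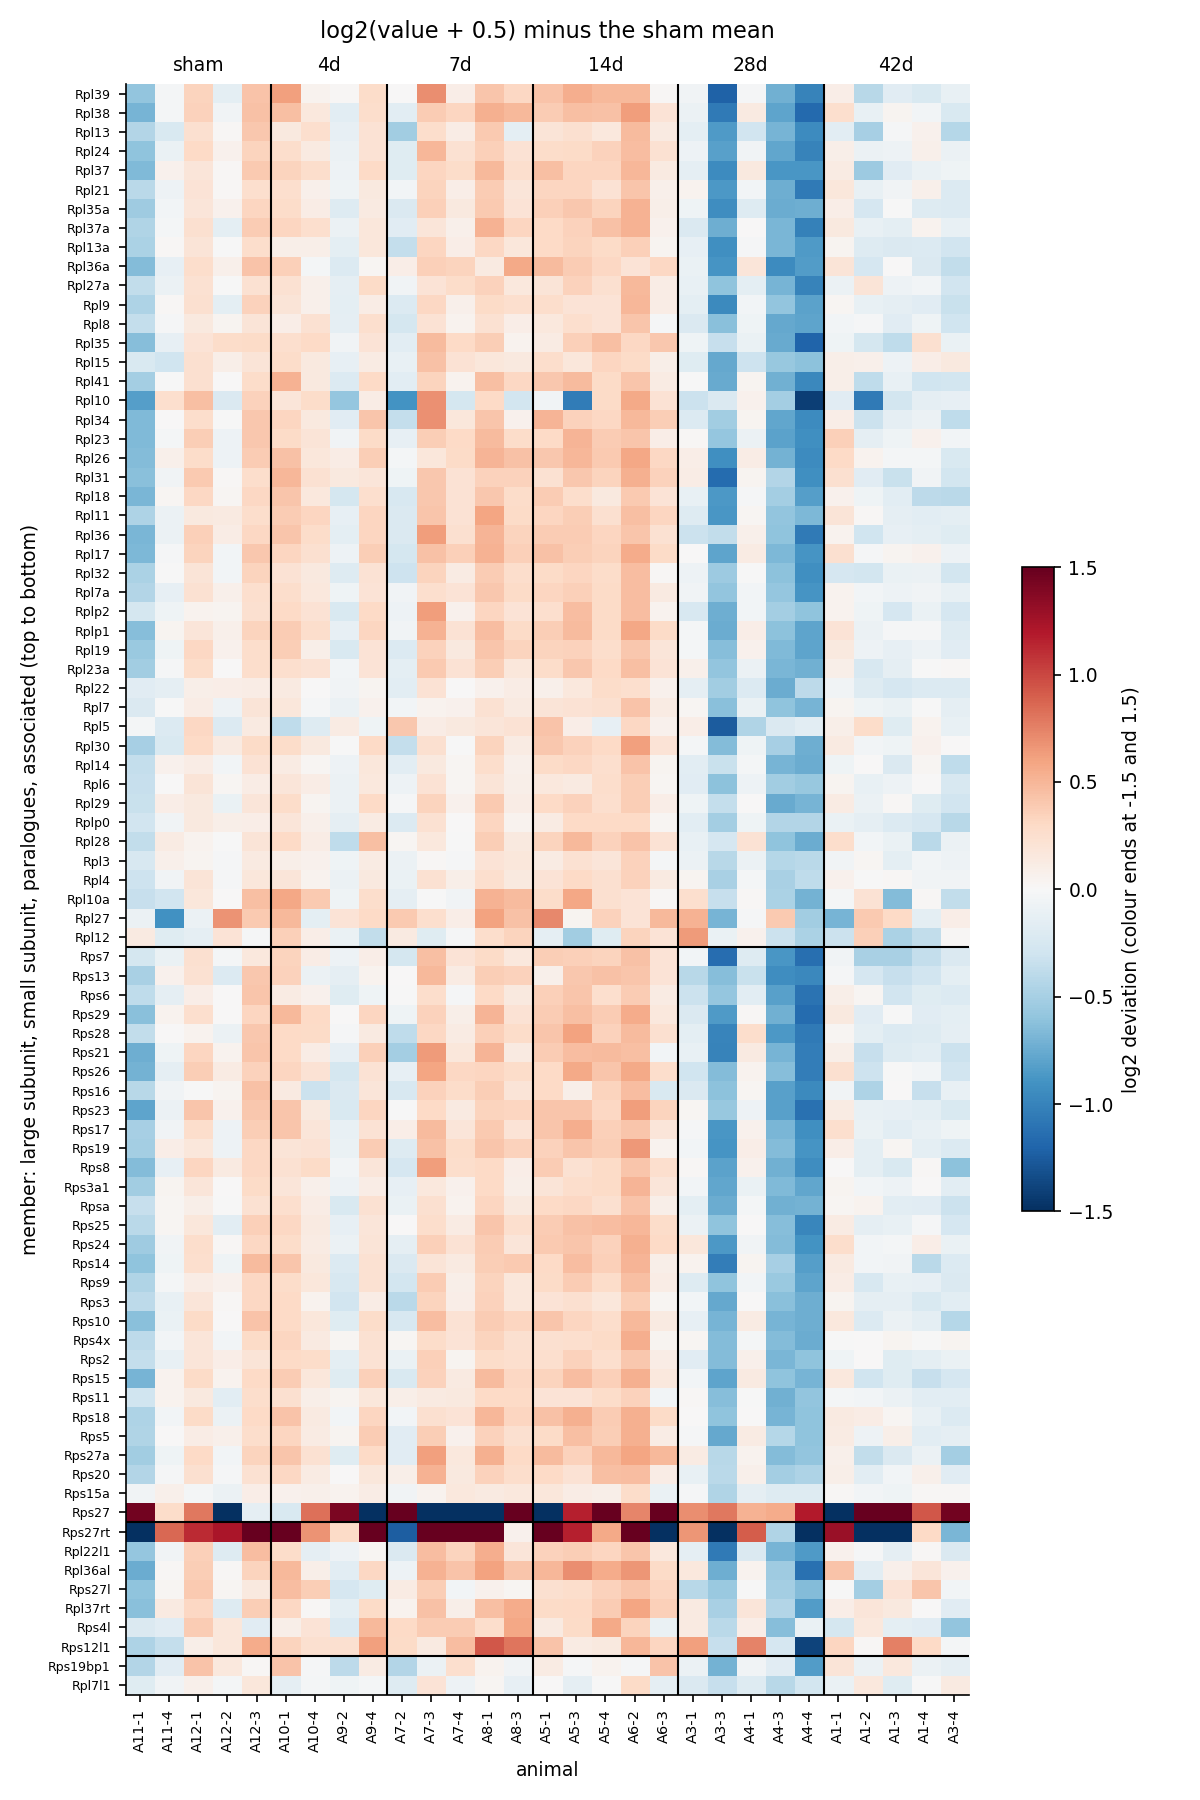
Deviation of log2(value + 0.5) from the sham mean (colour) for 84 of the 85 members (rows, by subgroup and then by the difference at 28 dpi) in 29 animals (columns, by group). Whole columns share 1 colour: A3-3, A4-3 and A4-4 at 28 dpi and, less so, the sham animal A11-1 are blue in most rows, and 14 dpi is red. Rps27 and Rps27rt depart from this.

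Between 14 and 28 dpi the difference was larger and rested on every animal. Of the 85 members, 79 (92.9%) were called lower at 28 dpi than at 14 dpi, against 21.9% of all genes lower and 21.0% higher, and the median member differed by -0.76. In 68 members all 5 animals at 28 dpi were below all 5 at 14 dpi, against 11.8% of all genes, and 68 members passed the 1.5-fold limit, against 4.22% of all genes. All 59 members called against sham were among the 79. The count stayed between 77 and 80 when any 1 animal of the 2 groups was left out and was 78 with ribosomal RNA as a covariate and 78 without the 3 animals highest in it. Since this contrast is also the difference between both departures from the sham group, 28 and 14 dpi differed in theirs.

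Rps13 fell most clearly by limma's p. It was 27.3, 34.3, 35.4, 34.8 and 29.8 in A5-1, A5-3, A5-4, A6-2 and A6-3 at 14 dpi, all above the highest 28 dpi animal at 20.4. The log2 difference was -0.97 ± 0.14 (SE; limma adjusted p = 1.71e-05). Rps7, at 38, 37.9, 37.2, 40 and 34, was likewise separate from 28 dpi, with a log2 difference of -1.02 ± 0.16 (SE; limma adjusted p = 3.49e-05). The 6 members not called in this contrast were Rpl10, Rpl12, Rpl27, Rps12l1, Rps27 and Rps27rt. These were not called against sham either.

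**Figure D3:**
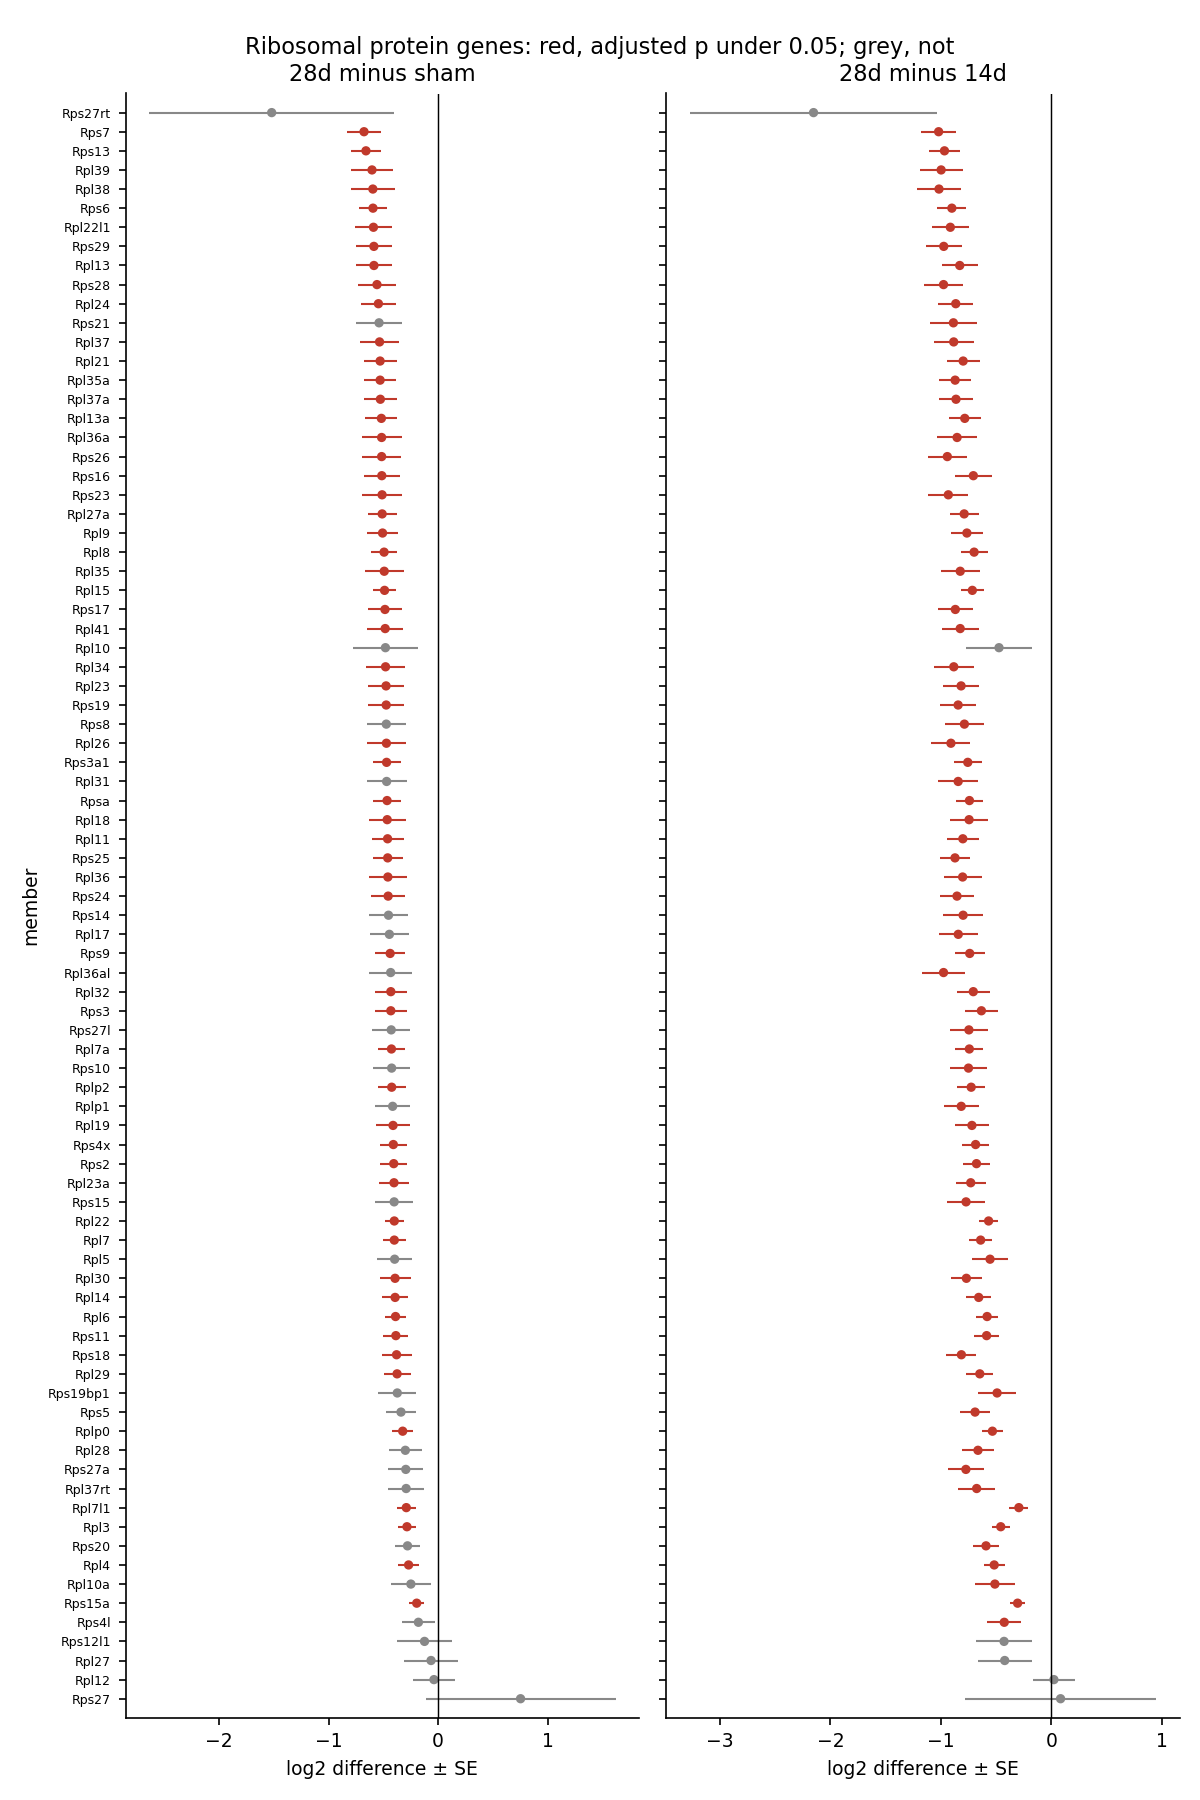
Fitted log2 difference (horizontal axis, bars ± SE) of 84 of the 85 members (vertical axis) between 28 dpi and sham (left) and between 28 and 14 dpi (right), red where the limma adjusted p was under 0.05. On the left 59 of those shown are red and 83 lie below 0, on the right 78 are red, and Rps27 and Rps27rt have by far the widest bars.

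At the earlier times no member was called. The family's median difference from sham was 0.14, 0.20 and 0.32 at 4, 7 and 14 dpi. Without the sham animal A11-1 it was 0.014, 0.07 and 0.19, the lowest values that leaving out any 1 animal gave. The highest such values were 0.22, 0.28 and 0.40. At 14 dpi it was 0.34 without A6-3 and 0.41 with ribosomal RNA as a covariate. Limma called 0 members at each of these times, against 0.106%, 0.0294% and 0.00588% of all genes. At an unadjusted p under 0.05, 0 members passed at 4 dpi, against 2.78% of all genes higher, and 3 at 7 dpi, against 2.22%. At 14 dpi 48 members (56.5%) passed, against 6.25% of all genes higher. At 14 dpi 83 of 85 members had a higher fitted mean, and in 2, Rpl28 and Rps27a, all stroke animals were above all sham animals, against 1.11% of all genes. At 4 dpi the lowest unadjusted p values were 0.125 for Rps29 and 0.135 for Rpl10a, with limma log2 differences of 0.28 and 0.29. At 7 dpi they were 0.0203 for Rps4l and 0.023 for Rps20, with differences of 0.38 and 0.27. At 14 dpi Rps18, a protein of the small subunit's head, had the lowest unadjusted p. It was 25.3, 34.1, 42.8, 32.9 and 43 in the sham animals and 47.5, 50.7, 45.7, 50.9 and 42.8 at 14 dpi. All 14 dpi animals but A6-3 were above every sham animal. The log2 difference of 0.43 ± 0.14 (SE) had a limma adjusted p of 0.381. When each animal was rescaled to the same sum of all values, ribosomal RNA included, the median member at 14 dpi turned to -0.20 while the median of all genes was at -0.48.

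At 42 dpi no member was called against sham by limma (0.0235% of all genes were), and 2 passed an unadjusted p under 0.05, Rplp0 and Rpl22, both with lower means. The limit was passed by 6.35% of all genes in the lower direction. The median member differed by -0.08, and by 0.053 with ribosomal RNA as a covariate. Against 28 dpi, 83 of 85 members had a higher fitted mean, with a median difference of 0.36, and 2 were called higher, against 1.45% of all genes. All 5 animals at 42 dpi were above all 5 at 28 dpi in 2 members, against 1.64% of all genes. The called members were Rpl15 and Rps6. Rpl15 was 66.5, 65.7, 59.1, 66.8 and 69.2 in A1-1, A1-2, A1-3, A1-4 and A3-4, all above the 28 dpi values, with a log2 difference of 0.56 ± 0.11 (SE; limma adjusted p = 0.0187). Rps6 was 105.1, 101.1, 80.8, 86.9 and 85.7 and overlapped A4-1 at 28 dpi. Its log2 difference was 0.48 ± 0.13 (SE; limma adjusted p = 0.0499). The count of 2 was 37 without A3-1 and 41 without A4-1, the animals at 28 dpi that resembled sham, and 0 without A3-3, A4-3, A1-2 or A1-4.

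All 7 paralogues had lower fitted means at 28 dpi than in the sham group. Rpl22l1, a paralogue of Rpl22 known to compensate for its loss and to regulate splicing, was the only one called against sham at 28 dpi. It was 10.4, 15.2, 20.3, 13.7 and 21.8 in the sham animals A11-1, A11-4, A12-1, A12-2 and A12-3 and 14.3, 7.3, 13.5, 9.5 and 8.5 in A3-1, A3-3, A4-1, A4-3 and A4-4. Again A3-1 and A4-1 lay inside the sham range. The log2 difference was -0.59 ± 0.17 (SE; limma adjusted p = 0.0120), beside -0.40 for Rpl22. Per kilobase Rpl22l1 stood at 24.98 and Rpl22 at 47.3 over all animals. Against 14 dpi the difference of Rpl22l1 was -0.91 ± 0.17 (SE; limma adjusted p = 0.000106).

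Rpl36al, a paralogue of Rpl36a, was 12.1, 20.9, 26.8, 20.9 and 26 in the sham animals and 29.3, 33.7, 30.6, 33 and 25.2 at 14 dpi. All 14 dpi animals but A6-3 were above every sham animal. The difference of 0.54 ± 0.20 (SE) had a limma adjusted p of 0.387. From 14 to 28 dpi Rpl36al changed by -0.98 ± 0.20 on the log2 scale (SE; limma adjusted p = 0.000283), next to -0.85 for Rpl36a, and both stood at similar levels per kilobase, 27.6 and 26.9. Rps27l, a p53 target related to Rps27, had means of 4.02 ± 1.05 (SD, n = 5) in the sham group and 2.82 ± 0.630 at 28 dpi, and only its difference from 14 dpi was called (-0.75 ± 0.17 SE, limma adjusted p = 0.001). Rps4l, a paralogue of Rps4x, differed from sham by -0.18 ± 0.15 (SE; limma adjusted p = 0.402), against -0.41 for Rps4x. Rpl37rt, a retrogene of Rpl37, differed by -0.29 ± 0.17 (SE; limma adjusted p = 0.197), against -0.53 for Rpl37.

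Both associated genes were called lower at 28 than at 14 dpi, with no overlap of animals. Rpl7l1, which acts in ribosome assembly, was 17.3, 19, 20.8, 19.3 and 22.2 in the sham animals and 16.9, 15.3, 17.1, 14.6 and 16.1 at 28 dpi. No values overlapped, and the log2 difference was -0.29 ± 0.09 (SE; limma adjusted p = 0.0164). At 14 dpi it differed from sham by 0.0023 on the log2 scale. Rps19bp1 was at 3.52 ± 0.909 (SD, n = 5) in the sham group and 2.62 ± 0.760 at 28 dpi, with a log2 difference of -0.37 ± 0.17 (SE; limma adjusted p = 0.111) that was not called. Against 14 dpi the limma log2 differences were -0.29 for Rpl7l1 (adjusted p = 0.00746) and -0.49 for Rps19bp1 (adjusted p = 0.0235).

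Several members that departed from the family share sequence with another row of the table, named here as a copy whatever the share. The authors' quantification divides reads among transcripts that contain the same sequence, so the split between copies is uncertain. Of the 31-base words of a member's transcripts, a median of 24.8% also occurred in another gene. The share was above 90% in 3 members, Rps12l1, Rpl36 and Rps27rt, and below 10% in 10. In Rpl12 (19.1%) and Rpl27 (24.8%), discussed below, it did not exceed the median. Whether the division of reads gave the departures was not tested.

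Rps27 and Rps27rt, a retrogene on chromosome 9 of the parent on chromosome 3, traded values from animal to animal. Their start windows are shown to compare parent and retrogene. That of Rps27rt holds a pair of runs of equal length, of which the first is in capitals.

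Rps27 (chr3:90213634-90213663, minus strand): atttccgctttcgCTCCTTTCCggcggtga
Rps27rt (chr9:114982725-114982754, minus strand): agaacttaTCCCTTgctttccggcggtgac

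Rps27 was 22.2, 9.6, 13.9, 1.1 and 7.1 in the sham animals and 13, 13.9, 11.5, 11.8 and 18.5 at 28 dpi. Rps27rt was listed at 0, 23.2, 27.7, 29.8 and 36.1 in the same sham animals and at 20.1, 0, 23.9, 9 and 0.3 at 28 dpi. A11-1 and A3-3 had no value for the retrogene, A12-2 had almost none for the parent, and other animals lay between. Their sum was 22.2, 32.8, 41.6, 30.9 and 43.2 in the sham animals and 33.1, 13.9, 35.4, 20.8 and 18.8 at 28 dpi, with A3-3, A4-3 and A4-4 below all sham animals as in most members. The pooled within-group SD on the log2 scale was 1.57 for Rps27 and 2.03 for Rps27rt but 0.31 for the sum, and the log2 difference of 0.75 for one and -1.52 for the other, neither called, became -0.52 for the sum. Sums of copies were formed after the values were seen and were not tested.

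**Figure D4:**
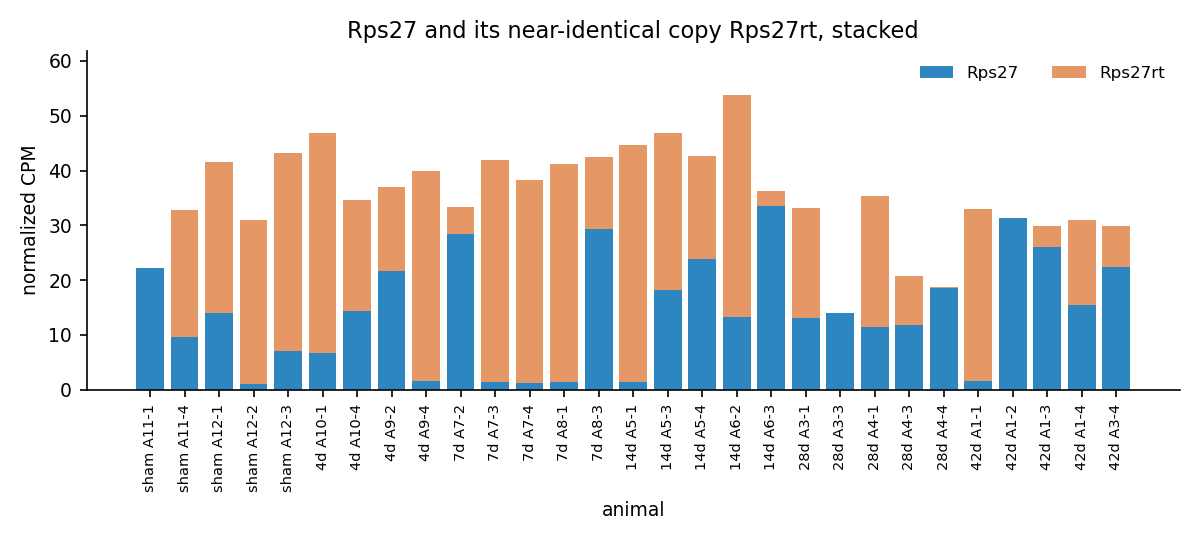
Normalized CPM of Rps27 (blue) and Rps27rt (orange) stacked for each of 29 animals. The share of the 2 changes from animal to animal, from no Rps27rt in A11-1 to almost none of Rps27 in A7-4, while the height of the whole bar stays between 13.9 and 53.8.

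In other members with a small difference, most of the joint value lay in the copy, so that the sum mainly follows the copy. Rpl12, of the ribosomal stalk base, was at 3.26 ± 0.434 (SD, n = 5) in the sham group and 3.28 ± 1.22 at 28 dpi, with a log2 difference of -0.04 ± 0.19 (SE; limma adjusted p = 0.903). The row of its copy Gm10275, which held 16.3% of its 31-base words, had 93.4% of their joint value. Gm10275 alone differed by -0.49 and the sum by -0.46. Rpl27, of the large subunit, was at 2.10 ± 0.990 and 1.96 ± 0.885 (SD, n = 5) and differed by -0.06 ± 0.25 (SE; limma adjusted p = 0.872). With Rpl27-ps3, which held 24.8% of its words and 88.4% of the joint value, the sum differed by -0.70, against -0.79 for Rpl27-ps3 alone. Rps12l1, all of whose words occur in Rps12-ps3, differed by -0.12 ± 0.25 (SE; limma adjusted p = 0.750), against -0.61 for Rps12-ps3 alone and -0.45 for the sum. Among 36 members whose closest row in the table shared over 10% of their words, that row held 10% or more of the joint value in 28. For these 28 the difference at 28 dpi ran from -1.52 to 0.75 for the member alone and from -1.58 to 0.75 for the copy alone. For the sum it ran from -0.70 to -0.26. The medians were -0.48, -0.39 and -0.46.

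Animals of 1 group differed more in the ribosomal protein genes than in the typical gene. The pooled within-group SD of log2 values had a median of 0.28 over the members and 0.19 over all genes, or 0.27 and 0.13 over genes with a mean value of at least 10, and 76 of 85 members exceeded the median of all genes. After subtracting each animal's median over the members, their median SD was 0.11. Part of that drop is built in, since the median subtracted is taken over the same genes. By group the median SD of the members was highest at 28 dpi (0.40) and in the sham group (0.32), followed by 7 dpi (0.23), 4 dpi (0.20), 42 dpi (0.15) and 14 dpi (0.14). Over all genes the same medians lay between 0.15 and 0.20. The smallest SDs were those of Rps15a (0.10), Rpl3 (0.13), Rpl7l1 (0.13) and Rpl22 (0.14). In these genes the SD was larger after the subtraction, at 0.20, 0.14, 0.20 and 0.15. Rps15a was 62.3, 68.4, 63.3, 61.2 and 69.4 in the sham animals. It was 64.3, 47.4, 59.1, 56.7 and 56.6 at 28 dpi, with 4 of 5 animals below all sham animals. Its log2 difference was -0.20 ± 0.07 (SE; limma adjusted p = 0.0311). After Rps27rt and Rps27 the largest SD was that of Rpl10 (0.53), whose copy Rpl10-ps3 held 31.9% of its words and 75.7% of their joint value. The SD of their sum was 0.23.

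Transcript length was looked at because the other genes showed a trend with it. Members are short, with a median transcript of 697 bases against 1829 for all genes, and 81 of 85 had 1222 bases or fewer, the shortest of 4 equal length classes. In each animal the slope of the log2 deviation on log2 length was taken over the genes that are not members. It was most positive in A4-4 (0.14), A3-3 (0.11) and A4-3 (0.11), followed by the sham animal A11-1 (0.07), and these were the 4 animals with the lowest median of the members. In the shortest class the other genes had a median difference of -0.15 at 28 dpi against sham and 21.98% of them were called lower, and in the longest class 0.12 and 4.49%. After correction of every animal for length and GC content the median member was at -0.34 against sham, with 62 called lower. Against 14 dpi it was at -0.55, with 76. Over all genes the corrected fit called 2875 lower against sham and 4177 against 14 dpi. Whether RNA integrity moved with these slopes was not tested.

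**Figure D5:**
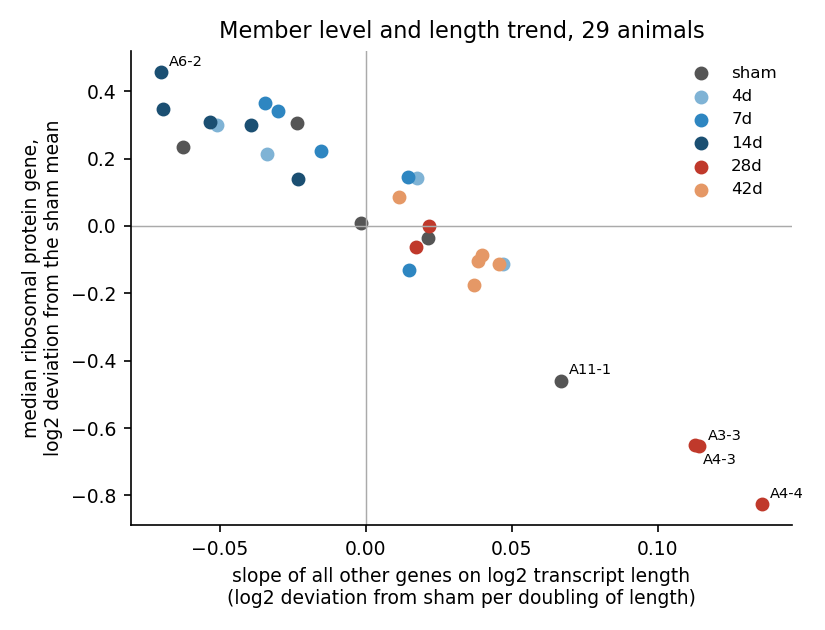
Median ribosomal protein gene (vertical axis, log2 deviation from sham) against the slope of all other genes on log2 transcript length (horizontal axis) in 29 animals, coloured by group. Points run from A6-2 at 14 dpi, with the highest median (0.46), to A4-4 at 28 dpi, with the lowest (-0.82) and the steepest slope (0.14).

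Other lists of protein synthesis were read at 28 dpi against sham, where 13.0% of all genes were called lower. With ribosomal RNA as a covariate 0 of 16995 genes were called in this comparison, so none of the following calls held there. Translation elongation factors had 4 of 6 called lower (median -0.26), other TOP mRNAs 10 of 14 (-0.32) and initiation factors 10 of 21 (-0.23). Ribosome biogenesis factors, with 3 of 24 (12.5%, median -0.11), and snoRNA host genes, with 1 of 7 (14.3%, median -0.33), were near the share of all genes. Eef1a1, which brings aminoacyl-tRNA to the ribosome, was at 611 ± 33.7 (SD, n = 5) in the sham group and 483 ± 93.4 at 28 dpi (log2 difference -0.36 ± 0.09 SE, limma adjusted p = 0.00658). Eif4a2, an RNA helicase of initiation, differed by -0.42 ± 0.07 (SE; limma adjusted p = 0.00139) and the nascent-chain factor Btf3 by -0.50 ± 0.12 (SE; limma adjusted p = 0.00511). Fau, which encodes the small-subunit protein eS30 as a fusion, differed by -0.41 ± 0.21 (SE; limma adjusted p = 0.135) and was not called.

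Regulators of ribosomal protein translation had 4 of 14 called higher and 1 lower (median 0.10), against 11.9% and 13.0% of all genes. These calls too were absent with ribosomal RNA as a covariate. By length class, 5.95% of the genes outside the family were called higher in the shortest and 20.97% in the longest. The lengths of the regulators were not compared with this. Larp1, the TOP-binding repressor, was at 101 ± 4.09 (SD, n = 5) in the sham group and 125 ± 15.3 at 28 dpi, a log2 difference of 0.30 ± 0.07 (SE; limma adjusted p = 0.0043). Rptor, the scaffold of mTORC1, differed by 0.30 ± 0.07 (SE; limma adjusted p = 0.00579). Eif4ebp2, which blocks cap-dependent initiation, was at 7.12 ± 0.572 and 15.2 ± 4.60 (SD, n = 5), a log2 difference of 0.99 ± 0.24 (SE; limma adjusted p = 0.00558). The one called lower, named after its value was seen, was Rheb, the GTPase that activates mTORC1, at -0.31 ± 0.10 (SE; limma adjusted p = 0.0260).

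Other housekeeping lists were set beside the members, in the fit without the ribosomal RNA covariate. Subunits of the respiratory chain had 61 of 74 called lower at 28 dpi against sham with a median of -0.46, the proteasome 24 of 38 with a median of -0.31, and mitochondrial ribosomal proteins 30 of 78 with a median of -0.28. In A4-4 the medians of these 3 lists were -0.83, -0.46 and -0.47, beside -0.82 for the cytosolic ribosomal proteins, and in A4-1 they were -0.03, -0.06 and -0.05. Of 38 marker genes of the cell types that the tissue could hold, 9 had a limma adjusted p under 0.05 in the same comparison, near the 24.9% of all genes called in either direction. The summed oligodendrocyte markers ranged from 4817 to 7339 in the sham animals and from 3511 to 5181 at 28 dpi, and the neuronal ones from 2123 to 2609 and from 1849 to 2364. The astrocyte sum had medians of 534 and 532, and the medians were 59.8 and 65.3 for microglia, 73 and 83.4 for endothelium and 30.5 and 35.4 for fibroblasts and meninges. The part of these cells in the ribosomal protein result was not tested.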

How the data were processed

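Ribo-depleted total RNA was sequenced from spinal cord tissue of 30 mice in 6 groups, of which 29 have values (the 4 dpi animal A9-3 has none). Per the methods and the labels, the authors quantified transcripts with SALMON against mm10, summarised them to genes and normalized them with edgeR (3.14.0) in R (3.4.1). The deposited values are a score, edgeR-normalized CPM rounded to 0.1, and not counts, so that read depth is unknown and no count model was used. They cover 16995 genes. Values were taken as log2(value + 0.5), which understates the change of low genes. One limma (3.58.1) fit with a variance trend and 6 group means was made over all genes and 29 animals in R (4.3.3), and 7 contrasts were adjusted by Benjamini-Hochberg over 16995 genes. A gene was called at an adjusted p under 0.05. Each p-value measures the spread between animals.

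Members were found by gene name. The members and all lists were chosen with earlier results of these data known. Named members were, per contrast, the 5 called with the lowest adjusted p or else the 2 with the lowest p, at 28 dpi against sham the 8 lowest, 4 highest and 4 nearest to 0, every paralogue and associated gene, the 4 largest and 4 smallest SDs and the 3 highest and 3 lowest means. At most 3 genes of each other list were named by p, with Fau. Some genes that the rule named are not reported here. Others, such as Rpl28, Rps27a and the parents of paralogues, were named after their values were seen. Words of 31 bases shared between transcripts were counted from GENCODE transcripts, and sequences came from RefSeq (GRCm38.p6). A length and GC correction used mgcv (1.9.3), and the other steps Python (3.11.15) with pandas (2.3.3), numpy (2.4.6) and matplotlib (3.10.9). The fit was tested on simulated data. The alternatives covered scaling, pseudocount, filter, fit, covariates, thresholds and leaving out animals. Rps12 was not analysed here.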

Additional observations from a re-analysis of the deposited data

Results flagged for a closer look

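Within the groups of 4 or 5 animals, 186 groups of values were searched for a single animal far from the others, which chance gives in about 1 of 20 groups, and 5 were found. At 14 dpi, Rpl37rt was at 26.8 in A6-2, with the others between 21.6 and 23.1. In A6-3 of the same group Rpl39 was at 20.5 (others 27.2 to 29.7) and Rps19bp1 at 4.8 (others 3.4 to 3.8). At 42 dpi, Rpl10 was at 8.3 in A1-2 (others 14.7 to 16.4) and Rpl22 at 42.6 in A1-1 (others 37.2 to 38.7).

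The departures from the sham group differed between 28 and 14 dpi in most members. By limma the difference between 28 and 14 dpi was called lower in 79 of 85 members (92.9%). Of all genes 21.9% were called lower and 21.0% higher in that contrast. The difference between 42 and 28 dpi was called higher in 2 members (2.35%), Rpl15 and Rps6, near the 1.45% of all genes.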

How the results depend on the processing

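No setting that was run turned the direction of a named member that was called. In 966 checks of 42 called results, 848 kept the call and 118 lost it. The losses were uneven. At 28 against 14 dpi Rps13 and Rps7 kept the call in all 23. Rps6 at 42 against 28 dpi kept it in 8 and lost it in 15. At 28 dpi against sham, Rpl4, Rps15a and Rps18 each kept it in 12 and lost it in 11. In the same comparison Rpl38 and Rpl39 each kept it in 15 and lost it in 8. At 28 dpi against sham, the 59 members called lower became 10 in a fit of these 2 groups alone. The median there was the same, -0.45, with 61 at an unadjusted p under 0.05. The count was 0 with ribosomal RNA as a covariate (9 at an unadjusted p under 0.05, median -0.28). It was 8 with the 1.5-fold limit and 10 at an adjusted p under 0.01. Without A6-3, A3-3 and A3-4, the animals highest in ribosomal RNA, it was 15 (60 at an unadjusted p under 0.05, median -0.37). That last setting was chosen after seeing the data. Leaving out 1 animal gave 16 to 76 (median -0.58 to -0.36). The count fell by over 1.5 times without A12-1 (20), A12-3 (21), A3-3 (16), A4-3 (27) or A4-4 (23). The other settings gave 44 to 84, the 84 with the same sum in every animal. The calls over all 16995 genes moved too. Called lower were 2206 in the fit used above, 815 in the 2-group fit and 0 with the ribosomal RNA covariate. They were 1124 without the 3 animals and 11214 with the same sum in every animal. At 28 against 14 dpi the settings gave 71 to 79, the 1.5-fold limit 68, and leaving out 1 animal 77 to 80 (median -0.87 to -0.68).

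The 2 members called higher at 42 against 28 dpi became 1 with a pseudocount of 0.05, quantile normalization, the same sum without the top 20 genes, no variance trend or the ribosomal RNA covariate. They became 0 with the same sum in every animal, the 2-group fit, the 1.5-fold limit, an adjusted p under 0.01 or without the 3 animals, whereas treating the label unit as random gave 14. Leaving out 1 animal gave 0 to 41 (median 0.26 to 0.47), with 37 without A3-1, 41 without A4-1, 1 without A4-4, A1-1 or A3-4, and 0 without A3-3, A4-3, A1-2 or A1-4. The cause of these changes was not tested.

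With the same sum in every animal, ribosomal RNA included, the median of all genes moved to -0.48, -0.72 and -0.52 at 14, 28 and 42 dpi against sham and to -0.22 at 28 against 14 dpi. The member medians became -0.20, -1.23, -0.63 and -1.02. The early contrasts had 0 calls whichever animal was left out, with medians of 0.014 to 0.22 at 4 dpi, 0.07 to 0.28 at 7 dpi and 0.19 to 0.40 at 14 dpi, as had 42 dpi against sham (-0.19 to -0.0083), where the ribosomal RNA covariate turned the median to 0.053. No paired analysis was possible because the animals of different groups share no replicate numbers. Unknown read depth limits what can be said of members near 0.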
